A study of Mus musculus with 15 samples.

Results

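MiR-10a and miR-10b are a pair of microRNAs encoded inside the Hox gene clusters, miR-10a among the Hoxb genes and miR-10b among the Hoxd genes. They were followed here by name: 3 of the 683 distinct mature miRNA names measured belong to them, mmu-miR-10a-5p, mmu-miR-10a-3p and mmu-miR-10b-5p (the species prefix is left out below), and all 3 were among the 652 miRNAs with enough reads to test. MiR-10a-3p reached this only through the libraries with a haemorrhage, described next. The 15 small RNA libraries came from wild-type mice, 5 per group, taken 14 days after surgery. The BYHWD mice had an intracerebral haemorrhage (ICH), in which blood escapes into brain tissue, and were gavaged daily with Buyang Huanwu decoction, a herbal mixture of traditional Chinese medicine, at 6.19 g/kg for 14 days. The ICH mice had the haemorrhage and the sham mice had the sham operation, and both received distilled water by the same route. The labels give neither strain nor age, nor how the haemorrhage was made. The basal ganglia of the operated side were dissected, yet the extraction text speaks of RNA from an exosome pellet. It is therefore unsettled if the RNA is that of the tissue or of its vesicles. Assignment to groups was random, but the labels do not say whether each library is 1 animal. If some are not, the p-values measure only the spread between these libraries.

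A microRNA is cut from a hairpin precursor whose strands are called the 5p and 3p arms. Usually 1 arm is loaded into the silencing complex and accumulates, and its seed, bases 2 to 8, pairs with target messenger RNAs. The miR-10 genes have kept their places in the Hox clusters in animals as far apart as flies and mice. Hox genes, which set position along the body axis, are active in the hindbrain and spinal cord during development and are largely silent in the forebrain, where the basal ganglia lie. Outside the nervous system, miR-10a has been described in regulatory T cells of mice and in endothelial cells of pig arteries, and miR-10 acts in vessel growth in zebrafish.

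The mature sequences are shown because the whole difference between the 2 dominant arms is a single base. They are taken from RefSeq (GRCm38.p6), written 5′ to 3′, with the seed in capitals.
miR-10a-5p: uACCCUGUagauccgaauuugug
miR-10b-5p: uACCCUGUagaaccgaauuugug
miR-10a-3p: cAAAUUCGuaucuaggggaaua
Counting from 1 at the 5′ end, the 23-base miR-10a-5p and miR-10b-5p differ by U12A, which lies outside the seed. Of 683 measured names, 574 had a RefSeq mature sequence, and 2 of these carried the seed ACCCUGU, miR-10a-5p and miR-10b-5p. Their nearest relatives among brain miRNAs lack 1 base of that seed and so carry another one.
miR-100-5p: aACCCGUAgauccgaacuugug
miR-99a-5p: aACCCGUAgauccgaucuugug
miR-99b-5p: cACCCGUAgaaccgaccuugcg
MiR-100-5p is 3 edits (substitutions, insertions or deletions) from miR-10a-5p, miR-99a-5p is 4 and miR-99b-5p is 6.

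The hairpins are shown with both mature arms in capitals, the 5p arm first.
Mir10a: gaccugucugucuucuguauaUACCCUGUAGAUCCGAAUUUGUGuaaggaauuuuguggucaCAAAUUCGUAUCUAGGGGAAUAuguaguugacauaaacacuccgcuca
Mir10b: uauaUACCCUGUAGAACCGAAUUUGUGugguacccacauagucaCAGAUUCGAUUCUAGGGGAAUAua
Mir10a lies at chr11:96317165-96317274 on the plus strand of GRCm38. In GENCODE M21 it has no host gene, starts 11044 bases after the end of Hoxb5 and ends 993 bases before the start of Hoxb4. Mir10b lies at chr2:74726070-74726137 on the plus strand, inside the annotated gene bodies of Hoxd4 and Hoxd3 and overlapping no exon of either. The 3p arms of these hairpins are 3 edits apart. MiR-10b-3p, miR-196a, miR-196b and miR-615, the other mature miRNAs of the mouse Hox clusters on the list used, were not analysed here.

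Names and counts do not line up in the deposited tables, and this decides what every value below means. In 15 of 15 tables the first count is the library's own number, so that each count stands 1 row below its name, and all values below use names moved down by 1 row. The counts of miR-10b-5p therefore stand beside the printed name miR-10a-5p. In the same way miR-181d-5p is the name printed at the counts of miR-10a-5p, and miR-1264-3p that at the counts of miR-10a-3p. The agreement of the 2 arms of a hairpin, as log2 CPM (in this check, counts scaled to a common library total), was compared under both readings. Over 115 hairpins with both arms at a mean of 50 counts or more, the median correlation between arms was 0.58 with the move, and over 117 as printed it was 0.25.

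After repeated rows of a name were removed, total counts per library were 4684611 to 9860236. Sham 4 and sham 5 stood apart from all other libraries, for example in miR-101a-3p, at 137472 and 88982 CPM against 12032 to 20621 CPM in the other 13. Some results are also given without them, and correlations with marker sums are given over all 15 libraries only. The summed level of 6 neuronal miRNAs was 27271 to 50681 CPM over all libraries, with no reference sample of tissue or vesicles to set beside it. The members were chosen by their levels in ICH and BYHWD against sham, so these values are given as description and without a p-value. The comparison of BYHWD with ICH, which shares the ICH libraries with the first of these, was tested.

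MiR-10a-5p, the dominant arm, was several-fold higher in both groups of mice with a haemorrhage than in sham mice, whether or not they received the decoction. In BYHWD libraries 1 to 5 it stood at 282, 835, 410.1, 336 and 928 CPM, in ICH libraries 1 to 5 at 473, 467, 1513, 386 and 547 CPM, and in sham libraries 1 to 5 at 105, 79.5, 164, 150.1 and 140.1 CPM. All libraries with a haemorrhage lay above all sham libraries, the lowest BYHWD library by 1.72-fold and the lowest ICH library by 2.36-fold over the highest sham library. BYHWD 2, BYHWD 5 and ICH 3 were the high libraries. In bulk samples such as these, fewer or more cells of a type and less or more RNA per cell cannot be told apart. The group means were 558 ± 300.4 CPM in BYHWD, 677 ± 471 CPM in ICH and 128 ± 34.6 CPM in sham (SD, n = 5 each).

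**Figure D1:**
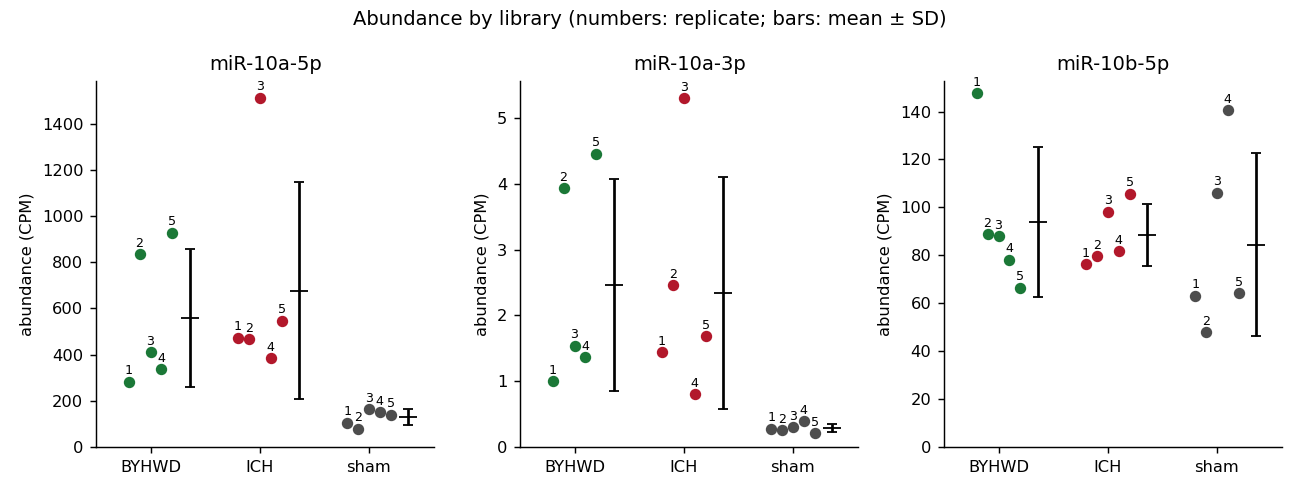
Abundance of miR-10a-5p, miR-10a-3p and miR-10b-5p in CPM on linear axes, 1 point per library labelled with its replicate number, with the mean ± SD beside each group (n = 5). All BYHWD and ICH points lie above all sham points for both arms of miR-10a, while the groups overlap for miR-10b-5p, where BYHWD 1 (148 CPM) and sham 4 (141 CPM) are highest.

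The spread within groups was wide for miR-10a-5p. The coefficient of variation was 53.8% in BYHWD, 69.5% in ICH and 27.1% in sham, and the highest library exceeded the lowest 3.29-fold in BYHWD, 3.92-fold in ICH and 2.06-fold in sham. The libraries held 1970 to 8067, 2410 to 12255 and 635 to 1640 reads of it in BYHWD, ICH and sham. Among the 683 names ordered by counts within a library, an order that needs no scaling between libraries, its places ran from 93 to 157 in BYHWD libraries, 75 to 135 in ICH libraries and 194 to 251 in sham libraries.

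In the fit across all 652 miRNAs, miR-10a-5p was 5.30-fold higher in ICH than in sham (log2 2.41, SE 0.43) and 4.37-fold higher in BYHWD than in sham (log2 2.13, SE 0.42). These comparisons share their sham libraries. Without ICH 3, the highest library, the value for ICH was 1.87, and without BYHWD 5 that for BYHWD was 1.82. The median log2 fold change over all miRNAs was -0.02 for ICH and 0.02 for BYHWD against sham. A complete separation of groups with ICH above sham was found for 17 miRNAs, 2.61% of those tested, and with BYHWD above sham for 22, or 3.37%. The reverse, below sham in every library, was found for 9 (1.38%) in ICH and 3 (0.46%) in BYHWD. Both arms of miR-10a belong to the sets above sham, for ICH and for BYHWD. By edgeR's quasi-likelihood test with Benjamini-Hochberg adjustment, 5 miRNAs (0.767%) were higher and 0 were lower in ICH than in sham, and 15 (2.3%) differed in BYHWD, 13 (1.99%) higher and 2 (0.307%) lower. Both arms of miR-10a are among the higher ones, which is how they were chosen, and these calls depend on single libraries. Without sham 4 and sham 5 together neither arm was called in either comparison. With 1 library left out in turn, the call of miR-10a-5p for BYHWD was lost without BYHWD 5, sham 4 or sham 5. Its call for ICH was kept each time, which is no support, since the members were chosen by this comparison. The call of miR-10a-3p was lost for ICH without ICH 2, ICH 3, sham 1, sham 4 or sham 5. For BYHWD it was lost without BYHWD 2, BYHWD 5, sham 4 or sham 5. DESeq2 gave more calls, 20 higher and 28 lower in ICH, and 22 higher and 30 lower in BYHWD. Single libraries moved the edgeR counts as well. For ICH against sham the count was 11 without ICH 4, 12 without sham 2 and 31 without sham 3. For BYHWD against sham it was 8, 9 and 3 without BYHWD 2, 4 or 5, and 44, 54, 2 and 5 without sham 1, 3, 4 or 5.

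MiR-10a-3p, the minor arm, was rare in every library but was likewise higher in both groups with a haemorrhage than in sham. Raw reads numbered 7, 38, 11, 11 and 22 in BYHWD libraries 1 to 5, 12, 19, 43, 5 and 18 in ICH libraries 1 to 5, and 2, 2, 3, 2 and 1 in sham libraries 1 to 5. Again no library with a haemorrhage was as low as any sham library, and BYHWD 2, BYHWD 5 and ICH 3 were the high ones. Levels averaged 2.46 ± 1.61 CPM in BYHWD, 2.34 ± 1.76 CPM in ICH and 0.286 ± 0.0650 CPM in sham (SD, n = 5 each).

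The sham level of miR-10a-3p rests on 10 reads in all, with an exact 95% Poisson interval of 4.80 to 18.4, against 89 reads in BYHWD and 97 in ICH. Scaled for depth, summed reads were 8.47 times as many in BYHWD as in sham (exact 95% interval 4.40 to 18.3) and 8.25 times as many in ICH as in sham (4.30 to 17.8). These intervals cover counting error only, and reads copied by PCR are not independent molecules. MiR-10a-3p passed the filter on low counts only through BYHWD and ICH libraries, and it was chosen by this difference. The intervals are therefore a description and no support for the difference. The fitted log2 fold changes were 3.01 (SE 0.64) for BYHWD and 2.97 (SE 0.63) for ICH against sham, and without ICH 3 the value for ICH was 2.43.

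The arms varied together across libraries, though the 1 to 3 reads of the 3p arm in each sham library cannot show this within sham. Over the 15 libraries log2 CPM of miR-10a-3p and miR-10a-5p had a Pearson correlation of 0.96 and a Spearman correlation of 0.96, and with group means removed the Pearson value was 0.89. Within the 10 libraries with a haemorrhage Pearson's r was 0.92 and Spearman's rho 0.90, and r was 0.84 without the 2 libraries farthest from the median. The arms come from the same libraries and share their depth scaling, so these are descriptions. Of all reads of the hairpin, the 3p arm made up 0.438% in BYHWD (95% Wilson interval 0.356 to 0.538%), 0.344% in ICH (0.282 to 0.420%) and 0.224% in sham (0.122 to 0.412%). Per library it ranged from 0.354 to 0.478% in BYHWD, from 0.207 to 0.525% in ICH and from 0.153 to 0.314% in sham, and these ranges overlap. The mean share per library did not differ detectably between BYHWD and ICH (0.416% and 0.338%, two-sided exact permutation p = 0.206, adjusted p = 0.413 over 2 such tests), and the smallest p this design allows is 0.00794.

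**Figure D2:**
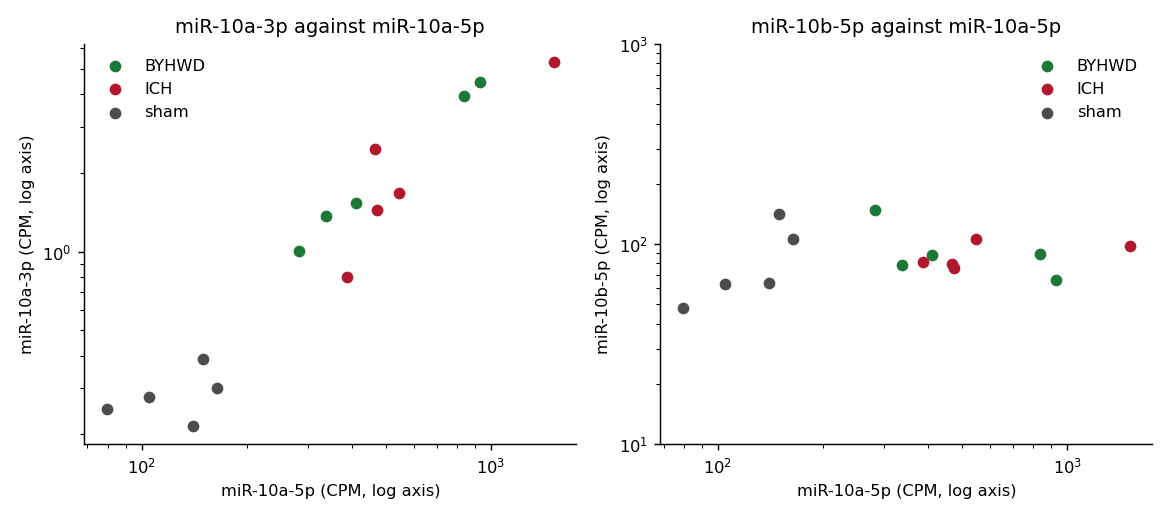
MiR-10a-3p (left) and miR-10b-5p (right) against miR-10a-5p, in CPM on log axes, 1 point per library coloured by group. The 3p arm rises with the 5p arm (r = 0.96 over 15 libraries and 0.92 over the 10 with a haemorrhage). Each sham point rests on 1 to 3 reads of the 3p arm, too few to show this within sham. MiR-10b-5p stays between 47.9 and 148 CPM while miR-10a-5p spans 79.5 to 1513 CPM.

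MiR-10b-5p, the paralog with the same seed, showed no such separation. It stood at 148, 88.8, 87.9, 78.2 and 66.5 CPM in BYHWD libraries 1 to 5, at 76.3, 79.7, 98.3, 81.7 and 106 CPM in ICH libraries 1 to 5, and at 63.1, 47.9, 106, 141 and 64.1 CPM in sham libraries 1 to 5. The groups overlap throughout, with BYHWD 1 and sham 4 highest and sham 2 lowest. Means were 93.8 ± 31.4 CPM in BYHWD, 88.3 ± 12.9 CPM in ICH and 84.4 ± 38.1 CPM in sham (SD, n = 5 each).

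The log2 fold change of miR-10b-5p against sham was 0.15 (SE 0.27) for BYHWD, with an interval of 2 SE from -0.38 to 0.69, and 0.07 (SE 0.27) for ICH, from -0.47 to 0.60. In linear terms these intervals reach from 0.768 to 1.61-fold and from 0.723 to 1.52-fold, so they lie below the 4.37-fold and 5.30-fold values of miR-10a-5p. Every library with a haemorrhage was above the median of the sham libraries, which was 64.1 CPM, but 0 of 5 ICH and 1 of 5 BYHWD libraries were above the highest of them. MiR-10b-5p and miR-10a-5p had a Pearson correlation of 0.23 over 15 libraries, of 0.10 with group means removed and of -0.24 within the 10 libraries with a haemorrhage.

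**Figure D3:**
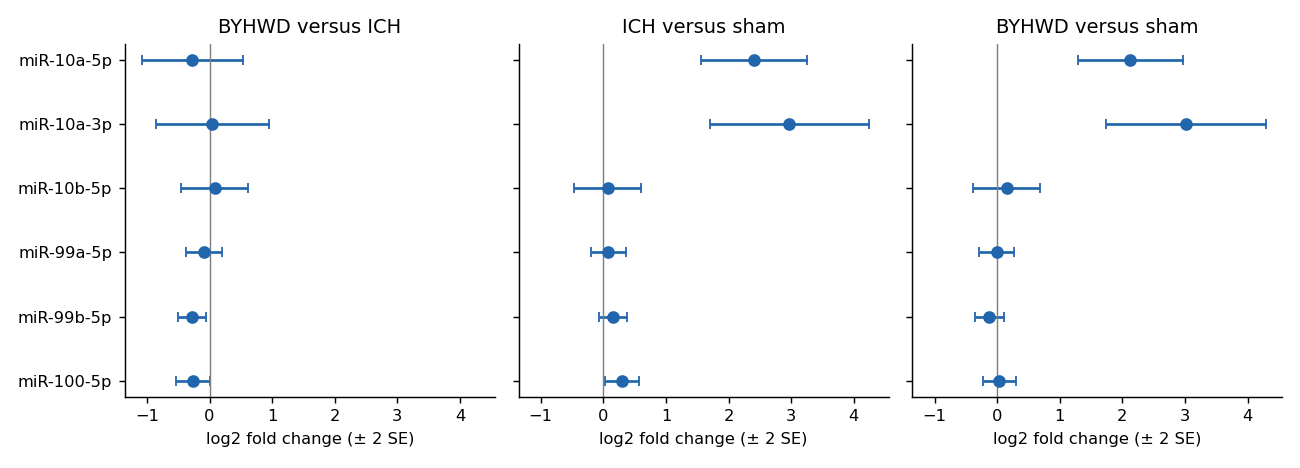
Log2 fold changes with intervals of 2 SE for the 3 miR-10 arms and their sequence relatives, from 1 fit over 15 libraries, in each comparison of the groups. Both arms of miR-10a lie well above 0 against sham (2.13 and 3.01 for BYHWD, 2.41 and 2.97 for ICH), while miR-10b-5p and the miR-99 and miR-100 arms lie between -0.12 and 0.30 against sham.

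The balance between the paralogs can be read within each library, with no scaling between libraries. MiR-10a-5p made up 65.7, 90.4, 82.3, 81.1 and 93.3% of the reads of miR-10a-5p and miR-10b-5p together in BYHWD libraries 1 to 5, and 86.1, 85.4, 93.9, 82.5 and 83.8% in ICH libraries 1 to 5. In sham libraries 1 to 5 the share was 62.5, 62.4, 60.7, 51.6 and 68.6%. All ICH libraries were above all sham libraries, whereas BYHWD 1, the library with the most miR-10b-5p, fell inside the sham range. In BYHWD 1 the 95% Wilson interval was 63.9 to 67.3%, which covers counting error only.

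**Figure D4:**
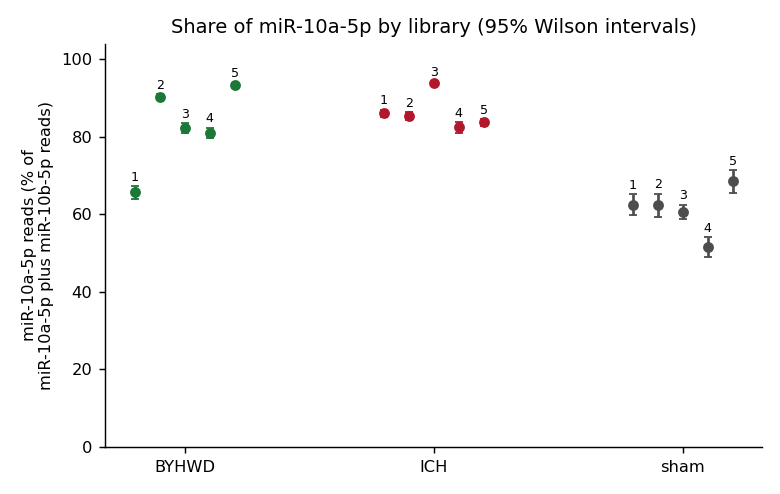
Reads of miR-10a-5p as a percentage of the reads of miR-10a-5p and miR-10b-5p together, 1 point per library labelled with its replicate number, with 95% Wilson intervals. ICH libraries lie from 82.5 to 93.9% and sham libraries from 51.6 to 68.6%, and BYHWD 1, at 65.7%, is the single treated library within the sham range.

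The mean share was 82.6 ± 10.8% in BYHWD, 86.4 ± 4.44% in ICH and 61.2 ± 6.11% in sham (SD, n = 5 each). As a ratio, there were 4.66 reads of miR-10a-5p per read of miR-10b-5p in the median BYHWD library, 5.86 in the median ICH library and 1.66 in the median sham library. The mismatches allowed in mapping are not given in the sources used here, so reads of these arms, which differ by 1 base, may have been exchanged to some extent. In ICH 3 the reads of miR-10b-5p came to 6.50% of those of miR-10a-5p, and in BYHWD 5 to 7.16%, the lowest values of the series. Because the seed is shared, the level of the sum is also of interest. It was 652 ± 283 CPM in BYHWD, 766 ± 477 CPM in ICH and 212.1 ± 68.3 CPM in sham.

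Whether the decoction altered these miRNAs in mice with a haemorrhage was asked by comparing BYHWD with ICH. No member was called, and no miRNA was at all: 0 of 652 (0%) passed in edgeR, where 31 had an unadjusted p under 0.05, and 0 passed in DESeq2, where 29 did. For miR-10a-5p BYHWD stood -0.28 from ICH on the log2 scale (SE 0.40, edgeR adjusted p = 0.976), and the interval of 2 SE, 0.471 to 1.44-fold, leaves room for sizeable differences in both directions. BYHWD libraries were above the ICH median in 2 of 5 cases. The sign rests on ICH 3, since without that library the value was 0.25. MiR-10a-3p had 0.04 (SE 0.45, edgeR adjusted p = 0.996, interval 0.550 to 1.93-fold), and -0.25 to 0.58 with 1 library left out in turn. MiR-10b-5p had 0.09 (SE 0.27, edgeR adjusted p = 0.996, interval 0.733 to 1.54-fold), and -0.14 without BYHWD 1. The share of miR-10a-5p differed by -3.78 percentage points (two-sided exact permutation p = 0.556, adjusted p = 0.556), and by 0.44 without BYHWD 1. In order of level, miR-10a-5p was highest in ICH, then BYHWD, then sham, and the first 2 did not differ beyond their spread.

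The related miRNAs miR-99a-5p, miR-99b-5p and miR-100-5p, which share most of the sequence but carry the seed ACCCGUA, were far more abundant and showed no such difference against sham. MiR-99a-5p averaged 32837 ± 4339.7 CPM in BYHWD, 34860.3 ± 6003.6 CPM in ICH and 32988 ± 3810.4 CPM in sham. MiR-100-5p averaged 18162 ± 1773 CPM in BYHWD, 21847 ± 3121 CPM in ICH and 17719 ± 2704 CPM in sham. For ICH against sham the log2 fold changes were 0.08 (SE 0.14) for miR-99a-5p, 0.15 (SE 0.11) for miR-99b-5p and 0.30 (SE 0.13) for miR-100-5p. None of the 3 was called in any comparison (lowest edgeR adjusted p = 0.204). Over all 652 miRNAs, 0% were called for BYHWD against ICH, 0.767% for ICH against sham and 2.3% for BYHWD against sham. MiR-10a-5p and miR-10b-5p together made up 0.695 to 1.89% of the reads of these 5 miRNAs in BYHWD libraries, 0.680 to 2.09% in ICH libraries and 0.226 to 0.548% in sham libraries.

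The miRNAs whose pattern was most like that of miR-10a-5p were sought among the 420 whose mean reached 10 CPM, by the Pearson correlation of log2 CPM over the 15 libraries. The closest was miR-155-5p (r = 0.88), induced in activated macrophages and microglia. It was followed by miR-142a-3p (0.88), typical of haematopoietic cells, miR-21a-5p (0.87), raised in many injured tissues, miR-142a-5p (0.81) and miR-199b-5p (0.79), a miRNA of mesenchymal cells. These values hold the difference between groups as well as that between libraries of a group, and all points share their libraries and scaling. With group means removed, the 5 closest were miR-21a-5p (0.66), miR-199b-5p (0.60), miR-322-5p (0.60), miR-28a-3p (0.58) and miR-142a-3p (0.55).

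The miRNAs most like miR-10b-5p were a different set. The closest were miR-1843a-5p and miR-1843b-5p (both 0.80), whose nearly equal counts make them 1 observation, and then miR-143-3p (0.78), a miRNA of smooth muscle and pericytes, miR-195a-3p (0.69) and miR-673-3p (0.68). For miR-143-3p the value was 0.54 without the 2 libraries farthest from the median, so it rests in part on them. The summed endothelial and mural miRNAs (miR-126a, miR-143-3p and miR-145a-5p) were highest in BYHWD 1, at 47664 CPM, and in sham 4, at 45419 CPM, against at most 36278 CPM elsewhere. In CPM these are the same 2 libraries in which miR-10b-5p was highest. Both levels share the TMM factor of their library, 0.667 in sham 4 and 0.984 in BYHWD 1. The low factor raises all CPM values of sham 4, and its part in this match was not tested. The correlation of that sum with log2 miR-10b-5p was 0.75, and with miR-10a-5p it was 0.07. The largest part of the sum was miR-143-3p itself (mean 20405 CPM, against 11165 CPM for miR-126a-3p). The value for the sum is therefore not separate from that for miR-143-3p, and it was not computed without BYHWD 1 and sham 4.

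**Figure D5:**
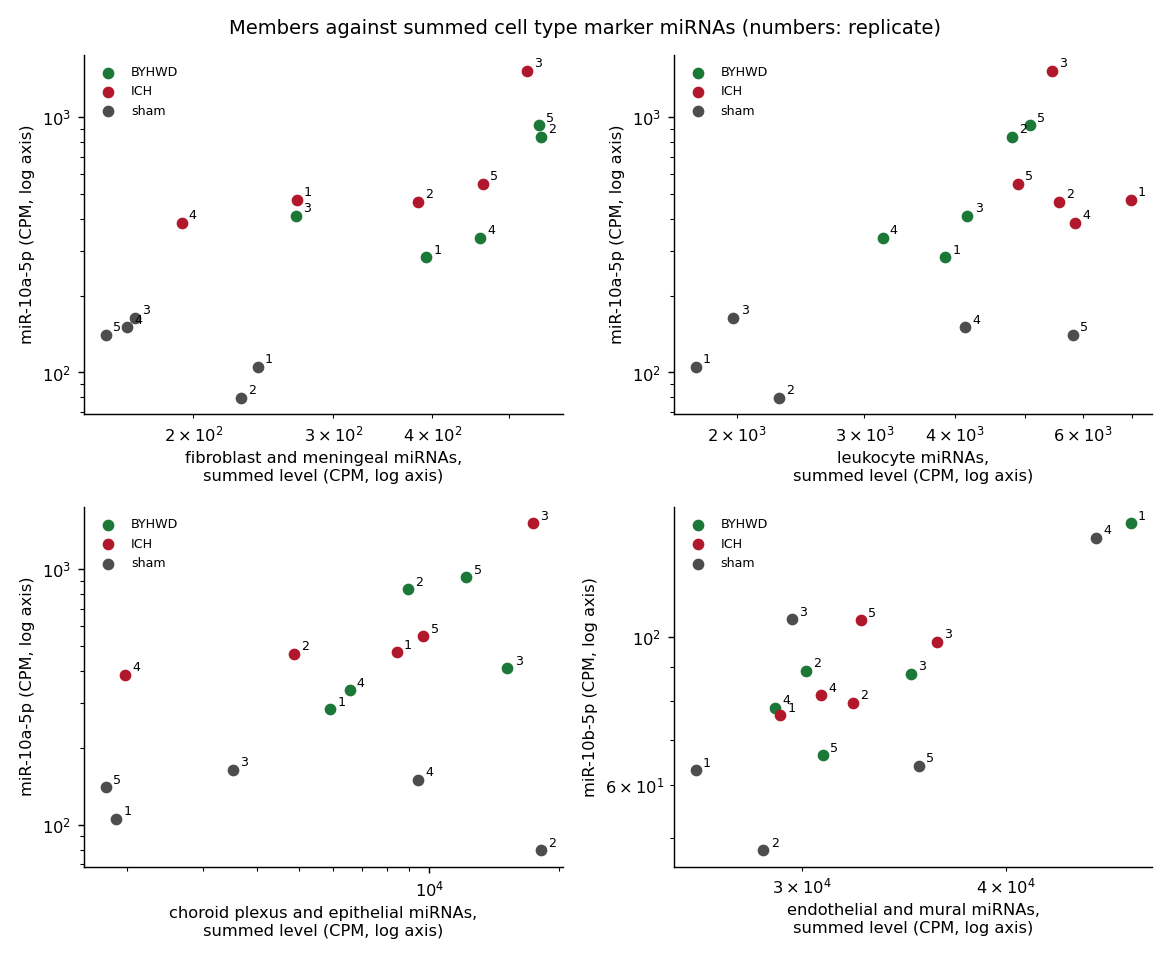
Levels of miR-10a-5p (3 panels) and miR-10b-5p (lower right) against the summed CPM of marker miRNAs of other cell types, on log axes, 1 point per library labelled with its replicate number. BYHWD 2, BYHWD 5 and ICH 3 are highest in both the fibroblast and meningeal sum and miR-10a-5p, and BYHWD 1 and sham 4 in both the endothelial and mural sum and miR-10b-5p. Both axes share the TMM factor of each library, which was 0.667 in sham 4. The members were chosen for the separation of groups on the vertical axis, and the part of these cells in it was not tested.

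Marker miRNAs of other cell types that a piece of injured brain could hold were set beside miR-10a. Of 6 leukocyte miRNAs, 2 rose in ICH and the same 2 in BYHWD against sham, miR-155-5p and miR-142a-3p. Their edgeR adjusted p was 6.26e-05 and 0.00395 in ICH, and 0.000353 and 0.00964 in BYHWD. Over all 652 miRNAs, 0.767% were higher in ICH and 1.99% in BYHWD. The lists were chosen with earlier results of these data known, so p-values of list members against sham are descriptions only. The medians of the 6 were 1.44 in ICH and 1.24 in BYHWD on the log2 scale. Their summed level, mostly miR-146a-5p, was 3177 to 5070 CPM in BYHWD, 4878 to 6981 CPM in ICH and 1756 to 5807 CPM in sham. All 6 had positive log2 fold changes in both groups. Those of miR-146a-5p were 0.85 (SE 0.31) in ICH and 0.37 (SE 0.31) in BYHWD, and those of miR-150-5p of lymphocytes 0.12 (SE 0.17) and 0.01 (SE 0.17). MiR-142a-5p had 1.19 (SE 0.30) in ICH and 0.92 (SE 0.30) in BYHWD, and miR-223-3p of myeloid cells had 1.69 (SE 0.49) and 1.58 (SE 0.49).

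The leukocyte sum reached 4128 CPM in sham 4 and 5807 CPM in sham 5. In the other sham libraries it was at most 2289.6 CPM. The sum is mostly miR-146a-5p, so leaving out the sham libraries high in it enlarges its difference by construction and is no support. With all libraries miR-146a-5p was not called (edgeR adjusted p = 0.126 in ICH and 0.537 in BYHWD). Without sham 4 and sham 5 miR-146a-5p was called in both groups, at 1.62 in ICH and 1.14 in BYHWD (edgeR adjusted p = 3.10e-05 and 0.00190). MiR-155-5p remained called at 2.29 and 1.97, and miR-142a-5p was called in ICH at 1.60 (edgeR adjusted p = 0.0169). MiR-142a-3p kept its call in ICH but not in BYHWD (edgeR adjusted p = 0.0324 and 0.0526). The part of leukocytes in the levels of miR-10a was not tested.

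Of 5 fibroblast and meningeal miRNAs 4 were tested, and all 4 had positive values against sham in both groups (medians 0.97 in ICH and 1.21 in BYHWD). In BYHWD 2 of them rose, miR-199a-3p by 1.21 (SE 0.25) and miR-199b-5p by 1.07 (SE 0.27) on the log2 scale, at edgeR adjusted p of 0.0117 and 0.0474. In ICH none passed. Over all 652 miRNAs, 1.99% were higher in BYHWD and 0.767% in ICH. Both calls were lost when sham 4 and sham 5 were left out together, at edgeR adjusted p of 0.0975 and 0.201. That of miR-199a-3p was also lost without BYHWD 5, sham 4 or sham 5 alone, and that of miR-199b-5p in 8 of 15 cases with 1 library left out. MiR-199a-5p, the second most abundant of them, had 1.00 (SE 0.33) in ICH and 1.24 (SE 0.33) in BYHWD. Their summed level was 269 to 548 CPM in BYHWD, 193 to 526 CPM in ICH and 155 to 241 CPM in sham. It was highest in BYHWD 2, BYHWD 5 and ICH 3, the same 3 libraries in which both arms of miR-10a were highest. Its correlation with log2 miR-10a-5p was 0.77 over 15 libraries and 0.47 with group means removed, and with miR-10a-3p it was 0.87 and 0.70. Other lists also varied with miR-10a inside groups. With group means removed, the neuronal sum had -0.59 with miR-10a-5p and -0.61 with miR-10a-3p. In the same order, the values were 0.35 and 0.61 for the multiciliated sum and 0.30 and 0.47 for the choroid plexus and epithelial sum. They were 0.29 and 0.05 for the oligodendrocyte sum and 0.27 and 0.12 for the leukocyte sum. The part that fibroblast and meningeal or other cells play in the levels of miR-10a was not tested.

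No member of the remaining lists was called in any comparison with all libraries. Calls were rare over all 652 miRNAs as well, at 0% for BYHWD against ICH, 0.767% for ICH against sham and 2.3% for BYHWD against sham. The lack of calls in short lists therefore does not show that these cells were unchanged. The 8 choroid plexus and epithelial miRNAs summed to 5897 to 15173 CPM in BYHWD, 1980 to 17393 CPM in ICH and 1785 to 18128 CPM in sham. Against sham 7 of the 8 had positive log2 fold changes in each group, with medians of 0.35 in ICH and 0.62 in BYHWD. Of their most abundant members, miR-1298-5p had 0.25 (SE 0.75) in ICH and 0.45 (SE 0.75) in BYHWD against sham, and miR-204-5p had 0.46 (SE 0.36) and 0.66 (SE 0.36) in the same order. The sum was highest in sham 2 and next highest in ICH 3. Its correlation with log2 miR-10a-5p was 0.41 over 15 libraries and 0.30 with group means removed, and the part of these cells in the levels of miR-10a was not tested. Multiciliated, endothelial and mural, erythroid, neuronal and oligodendrocyte lists had medians in ICH of -0.02, 0.00, -0.68, -0.14 and 0.27. In BYHWD these medians were 0.20, 0.15, 0.15, -0.18 and 0.35.

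The most abundant members of these lists are given next. For ICH against sham the log2 fold change was 0.15 (SE 0.42) for miR-34c-5p and -0.02 (SE 0.47) for miR-34b-5p of multiciliated cells. It was 0.04 (SE 0.24) for miR-143-3p and -0.18 (SE 0.15) for miR-126a-3p of vessels, and -0.77 (SE 0.55) for miR-451a and -0.15 (SE 0.18) for miR-486a-5p of red cells. It was 0.25 (SE 0.18) for miR-128-3p and -0.06 (SE 0.26) for miR-218-5p of neurons, and -0.53 (SE 0.31) for miR-219a-2-3p and 0.16 (SE 0.13) for miR-338-5p of oligodendrocytes. Sham 4 and sham 5 stood apart in the oligodendrocyte list, with sums of 24226 and 20803 CPM, against at most 11267 CPM in any other library. Without them miR-219a-2-3p had the opposite sign, 0.30 for ICH and 0.14 for BYHWD against sham. For miR-143-3p the values were then 0.47 and 0.62. For miR-10a-5p, which was then not called, they were 2.53 and 2.25, and for miR-10b-5p 0.27 and 0.36.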

How the data were processed

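Each library has a deposited table of read counts per mature miRNA name, as whole numbers without normalization. The submitters' processing notes name cutadapt, Bowtie, edgeR and the build hg38, a human build, for these mouse libraries. The mapping rules for mismatches and reads with several matches are not given in the sources used here. Per the labels' protocols, the NEBNext small RNA kit was used, and no molecular identifiers are mentioned.

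Names were moved down by 1 row, and a name on several rows was represented by its most abundant row, leaving 683 names and 4684611 to 9860236 counts per library. Counts were filtered with edgeR's filterByExpr (652 kept), scaled by TMM and fitted over all 15 libraries with edgeR 4.0.16's robust quasi-likelihood test in R 4.3.3. P-values were adjusted over 652 miRNAs by Benjamini-Hochberg, and a miRNA was called at an adjusted p under 0.05. SEs were derived from the F statistic, and log2 CPM used a prior count of 2. Shares were compared by exact permutation tests (SciPy 1.17.1). The fit was tested on simulated data. Alternatives were DESeq2 1.42.0, its size factors, no filter, the replicate number as a block, all rows, names as printed, and libraries left out.

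The members and lists were chosen with earlier results of these data known. Named miRNAs were the members, the Hox cluster list, the sequence relatives, the 5 closest by correlation and the 2 most abundant of each marker list.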

Additional observations from a re-analysis of the deposited data

Results flagged for a closer look

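A library stood far from the other 4 of its group in 2 of 12 checks, made on the levels and shares of the miR-10 arms, and chance gives about 1 in 20. MiR-10a-5p was 1513 CPM in ICH 3, and the gap to the next ICH library was 0.857 of the range of the group, against a critical value of 0.71. MiR-10b-5p was 148 CPM in BYHWD 1, with a gap of 0.725 of the range. ICH 3 was also highest of its group in miR-10a-3p, at 5.31 CPM.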

How the results depend on the processing

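With the names as printed, the rows called miR-10a and miR-10b gave other values. For miR-10a-5p the log2 fold change was 0.093 for BYHWD against ICH, 0.036 for ICH against sham and 0.13 for BYHWD against sham. For miR-10a-3p it was 0.074 for ICH and 0.29 for BYHWD against sham, and for miR-10b-5p it was -0.56 for ICH against sham. The share of miR-10a-5p then differed by 6.18 percentage points between ICH and sham, in place of 25.2, and by 1.95 between BYHWD and sham, in place of 21.4. Under the other alternatives that kept all libraries or left out sham 4 and 5 together, miR-10a-5p stayed between 2.27 and 2.53 for ICH and between 2.08 and 2.25 for BYHWD against sham.

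The number of miRNAs called for ICH against sham was 48 with DESeq2, in place of 5. For BYHWD against sham it was 52 with DESeq2, 23 with all rows as deposited and 7 without sham 4 and 5, in place of 15. The causes were not tested.

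With 1 library left out in turn, miR-10a-5p ranged from -0.56 to 0.25 for BYHWD against ICH (adjusted p 0.883 to 1.00), from 1.87 to 2.56 for ICH against sham and from 1.82 to 2.30 for BYHWD against sham. MiR-10a-3p ranged from -0.25 to 0.58, from 2.43 to 3.17 and from 2.71 to 3.21 in the same order of comparisons. For BYHWD against ICH it was -0.25 and -0.24 without BYHWD 2 or 5, and -0.11, -0.15 and -0.07 without ICH 1, 4 or 5. MiR-10b-5p ranged from -0.14 (without BYHWD 1) to 0.16, from -0.08 to 0.33 and from -0.07 to 0.38. The share ranged from -6.47 to 0.44 percentage points (the highest without BYHWD 1), from 22.8 to 27.1 and from 18.7 to 25.6. The counts of calls ranged from 0 to 0, from 4 to 31 and from 2 to 54.

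The replicate numbers did not mark pairs: 3 of 15 correlations between same-numbered libraries were over 0.1 (range -0.43 to 0.22), and the own number was the best match in 4 of 30 cases. With the replicate number as a block, 0, 5 and 9 miRNAs were called in these comparisons, and miR-10a-5p had -0.19, 2.27 and 2.08. Depth limits miR-10a-3p most, with 1 to 3 reads in each sham library.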
